A study of Mus musculus with 81 samples.

Results

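The genes covered here are 8 that are used as markers of the birth and maturation of neurons in the adult dentate gyrus. They are Dcx, Sox4, Sox11, Calb2, Igfbpl1, Draxin, Eomes and Neurod1, out of 57010 gene identifiers in the count matrices. Dcx, Sox4, Sox11 and Neurod1 were also present in pyramidal neuron libraries, so their levels do not follow newborn neurons alone. The genes were found by symbol in a Gencode mouse annotation and read in every library of dentate gyrus granule cells (DGCs), CA3 pyramidal neurons (CA3 PNs) and CA1 pyramidal neurons (CA1 PNs). They were chosen by measured values of these libraries, namely the dentate difference between genotypes on the normal diet and the dentate differences between diets. Those dentate values are therefore described with an error and without a test.

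The dentate gyrus is one of the few regions of the adult mouse brain where neurons continue to be born. Radial glia-like stem cells in the subgranular zone give rise to dividing progenitors that express the transcription factor Eomes, then to neuroblasts that carry the microtubule-associated protein doublecortin (Dcx), and these pass through a calretinin (Calb2) stage before they become mature granule cells that express Prox1 and Calb1. Sox4 and Sox11 are related SoxC transcription factors of immature neurons, and Neurod1 is a basic helix-loop-helix factor needed for granule cells to survive and mature. Igfbpl1 encodes an IGF-binding protein-like protein found in young neurons, and Draxin encodes a secreted guidance protein that binds the netrin receptor DCC.

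Neurons were taken by laser capture from Nissl-stained sections of male Ts65Dn (Ts) and disomic (2N) mice aged 6 MO and profiled by RNA sequencing. Ts mice are trisomic for a part of chromosome 16, held on a small additional chromosome that also brings in some chromosome 17 sequence unrelated to human chromosome 21. The dams of both genotypes ate chow with 1.1 g/kg choline (normal diet) or 5.0 g/kg choline (supplemented diet) through gestation and lactation, and all mice shared the colony's mixed C57Bl/6J Eicher and C3H/HeSnJ background. DGC libraries came from 6 Ts and 6 2N mice on the normal diet and from 9 Ts and 7 2N mice on the supplemented diet, CA3 PN libraries from 6 and 6 and from 7 and 7, and CA1 PN libraries from 5 and 6 and from 9 and 7. A library pools many captured neurons of 1 mouse, so fewer young neurons and less RNA in each of them cannot be told apart.

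Depth limited the rarer genes, since DGC libraries held 358355 to 1680698 expected counts, CA3 PN libraries 625250 to 4744044 and CA1 PN libraries 645481 to 1918846. The mean log2 CPM of triplicated chromosome 16 genes separated the genotypes in DGCs (5.55 to 5.86 in 2N, 6.20 to 6.42 in Ts) and in CA3 PNs (5.70 to 5.95 in 2N, 6.19 to 6.42 in Ts). In that check the CA3 PN library of mouse 15-145, which carries a Ts label while the mouse's other libraries are labelled 2N, lay at 5.95 and was treated as 2N. The CA1 PN library of mouse 17-154 is labelled 2N and lay at 6.43, inside the Ts range. In 10 of 27 CA1 PN libraries the summed level of 5 CA3 PN markers was 138.6 to 633.8 CPM, against 1.5 to 28.1 CPM in the other 17. The summed level of 6 CA1 PN markers was 54.2 to 1078 CPM in these 10, against 1361 to 1998 CPM in the other 17. It was lowest in the CA1 PN libraries of mice 16-272 (54.2 CPM) and 17-21 (82.5 CPM), against 20.1 to 49.7 CPM in CA3 PN libraries. By these markers the libraries of 16-272 and 17-21 were closer to CA3 PNs than to the other 17. Results for CA1 PNs are therefore given with and without the 10. The dentate label held in all 28 DGC libraries, where Prox1 lay between 694.3 and 957.2 CPM, against medians of 4.40 CPM in CA3 PNs and 4.92 CPM in CA1 PNs.

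On GRCm39, Dcx lies at chrX:142638838-142716307, Sox11 at chr12:27384263-27392573, Calb2 at chr8:110864128-110894881 and Igfbpl1 at chr4:45809254-45826923, all on the minus strand. Sox4 (chr13:29132902-29137696, minus strand) sits within the lncRNA gene A330102I10Rik of the plus strand, which had 343 counts over the DGC libraries against 635 for Sox4. Neurod1 (chr2:79282865-79287294) overlaps Cerkl on the same minus strand, with 1825 against 283 counts. Draxin (chr4:148182894-148215155, minus strand) overlaps the plus-strand gene Mad2l2, which had 41 counts against its own 15. Eomes lies on the plus strand of chromosome 9 (chr9:118307280-118315200). None of the 8 genes is in the triplicated segment. Whether reads were assigned by strand is not given in the sources used here, so counts shared by an overlapping pair cannot be separated further.

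In DGCs 4 of the 8 genes were measured well and 4 only in traces. On the TPM scale, which corrects for transcript length, Neurod1 was the most abundant of the 8 with a median of 24.2 TPM over 28 DGC libraries (9.95 to 34.7), followed by Sox11 at 9.04 TPM (3.73 to 14.6). Sox4 at 4.14 TPM (1.24 to 8.60) and Dcx at 3.86 TPM (1.32 to 13.7) came next, with ranges that overlapped. Igfbpl1 had a median of 0.42 TPM and 40 counts in all, spread over 19 of 28 libraries. Calb2 was seen in 12 libraries (20 counts), Draxin in 9 (15 counts) and Eomes in 7 (8 counts). Neurod1 and Sox11 differed beyond their spread (24.7 ± 6.37 and 9.32 ± 2.79 TPM, mean ± SD, n = 28), and Sox4 and Dcx did not (4.71 ± 2.11 and 4.20 ± 2.45 TPM).

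**Figure D1:**
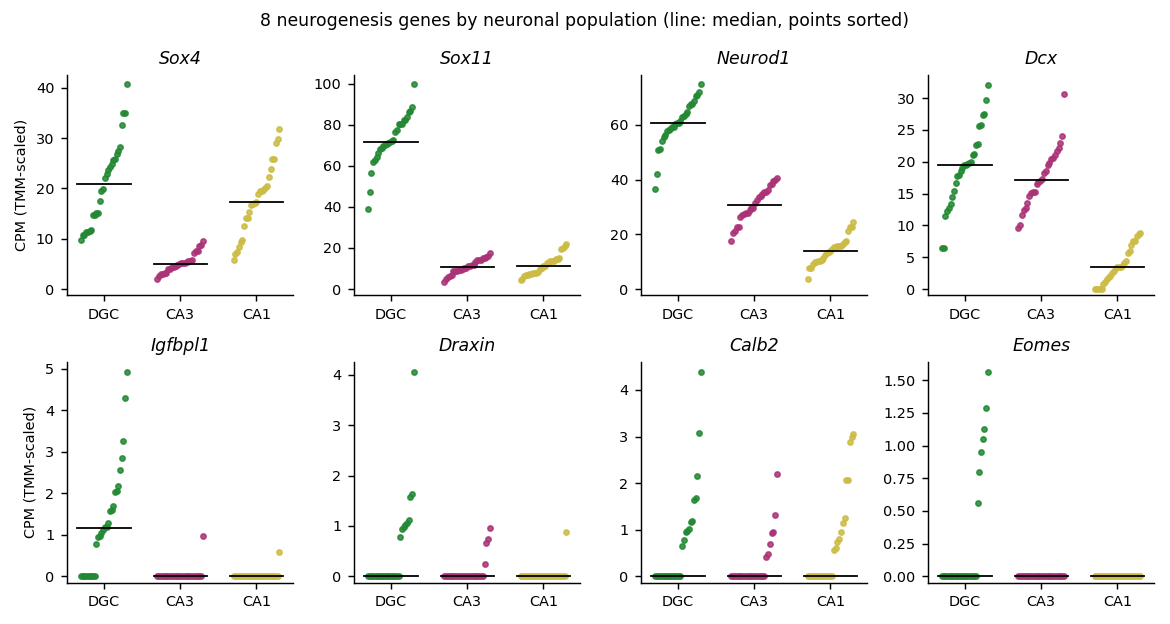
Level of the 8 genes in each library, in CPM after TMM scaling (vertical axis), for 28 DGC, 26 CA3 PN and 27 CA1 PN libraries, with points sorted by value within a population and a line at the median. Sox11 and Sox4 in every DGC library lay above all CA3 PN libraries, Dcx was at a similar level in DGCs and CA3 PNs, and Sox4 overlapped between DGCs and CA1 PNs.

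Between populations, 3 of the 4 well measured genes differed between DGCs and CA3 PNs (Sox11, Sox4 and Neurod1) and 3 of 4 between DGCs and CA1 PNs (Sox11, Dcx and Neurod1), by edgeR's quasi-likelihood test at an adjusted p under 0.05. At the same threshold 58.9% and 51.4% of all genes tested differed in these comparisons, so the counts are to be read against a background in which most genes differ. Igfbpl1 and Draxin reached the filter on low values mainly through their DGC libraries, and their tests between populations are not used. Here and below, LFC is the log2 fold change of CPM (± SE). Since the same mice gave the 3 populations, the p values take libraries of 1 mouse as separate samples.

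Sox11 was the gene most specific to granule cells among the well measured ones. Its level was 39.2 to 99.7 CPM in DGCs (median 71.9), 3.43 to 17.4 CPM in CA3 PNs (median 10.8) and 4.58 to 22.02 CPM in CA1 PNs (median 11.1). Every DGC library lay above every pyramidal library. The LFC was 2.75 ± 0.10 against CA3 PNs (edgeR adjusted p = 3.30e-47) and 2.67 ± 0.11 against CA1 PNs (edgeR adjusted p = 2.20e-44), while CA1 and CA3 PNs differed by 0.08 ± 0.13 (edgeR adjusted p = 0.702).

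Neurod1, which keeps a role in mature granule cells as well as in young ones, formed a graded series. Its levels were 36.7 to 74.9 CPM in DGCs (median 60.8), 17.5 to 40.7 CPM in CA3 PNs (median 30.6) and 3.75 to 24.5 CPM in CA1 PNs (median 14.1). All mice with both libraries followed this order, 26 of 26 for DGCs over CA3 PNs and 25 of 25 for CA3 PNs over CA1 PNs. The LFC was 0.99 ± 0.08 for DGCs against CA3 PNs (edgeR adjusted p = 7.23e-21), 2.10 ± 0.09 for DGCs against CA1 PNs (2.23e-41) and -1.12 ± 0.10 for CA1 against CA3 PNs (5.84e-19).

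Sox4, the relative of Sox11, was not confined to granule cells. It lay at 9.74 to 40.7 CPM in DGCs (median 20.9), 2.05 to 9.60 CPM in CA3 PNs (median 5.07) and 5.83 to 31.8 CPM in CA1 PNs (median 17.3). DGCs exceeded CA3 PNs by an LFC of 2.01 ± 0.15 (edgeR adjusted p = 3.30e-24), and CA1 PNs exceeded CA3 PNs by 1.77 ± 0.15 (1.26e-19). DGCs and CA1 PNs did not pass the test (LFC 0.24 ± 0.13, 95% interval -0.02 to 0.49, edgeR adjusted p = 0.123), and Sox4 was higher in the DGC library in 17 of 27 mice. With library totals in place of TMM scaling, which moved the median LFC of all genes by 0.15, the Sox4 difference became 0.38 and passed (edgeR adjusted p = 0.0101). These estimates average over the genotype and diet groups. Mean Sox4 in DGCs and CA1 PNs was 31.1 and 17.4 CPM in 2N and 15.0 and 18.7 CPM in Ts mice on the normal diet. On the supplemented diet the means were 22.3 and 20.7 CPM in 2N and 17.3 and 15.1 CPM in Ts mice.

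Dcx, the standard marker of neuroblasts, did not separate DGCs from CA3 PNs. It was present in all 28 DGC libraries at 6.45 to 32.1 CPM (median 19.5) and in all 26 CA3 PN libraries at 9.60 to 30.6 CPM (median 17.2), and was higher in the DGC library in 13 of 26 mice. The LFC of 0.16 ± 0.14 (95% interval -0.11 to 0.43) did not pass the test (edgeR adjusted p = 0.319), but with library totals, which shifted the median of all genes by 0.21, it was 0.39 and passed (edgeR adjusted p = 0.0102). CA1 PNs held much less Dcx, at 0 to 8.79 CPM (median 3.51), with no count in 5 of 27 libraries. DGCs exceeded CA1 PNs by an LFC of 2.55 ± 0.19 (edgeR adjusted p = 8.21e-23), in 27 of 27 mice, and CA1 PNs lay below CA3 PNs (LFC -2.38 ± 0.19, 6.79e-21).

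Between CA1 and CA3 PNs, 3 of these 4 genes passed (Sox4, Dcx and Neurod1), against 41.2% of all genes. Without the 10 CA1 PN libraries that held CA3 PN markers, an alternative added after seeing the data, the LFC between CA1 and CA3 PNs was 2.00 for Sox4 and -3.495 for Dcx, and the LFC of DGCs over CA1 PNs was 0.02 for Sox4 and 3.67 for Dcx.

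Among the rare genes, Igfbpl1 and Eomes were almost exclusive to DGC libraries. Igfbpl1 had 40 counts in DGCs and 1 count in each of the pyramidal populations, a CPM ratio of 54.1 to CA3 PNs (95% counting interval 9.17 to 2190) and 40.6 to CA1 PNs (6.88 to 1643). Draxin had 15 counts over the DGC libraries, 4 over those of CA3 PNs and 1 over those of CA1 PNs. Eomes had 8 counts in 7 DGC libraries and none in 53 pyramidal libraries, at least 3.61-fold and 2.71-fold above what 3 counts over all CA3 PN (0.0750 CPM) or CA1 PN libraries (0.0999 CPM) would give. It was too low to be tested. Such intervals and limits cover counting error only.

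Calb2 behaved differently from the other rare genes, with 20 counts over the DGC libraries, 12 over those of CA3 PNs and 18 over those of CA1 PNs. It did not pass in any of the 3 comparisons (LFC -0.46 ± 0.34 for DGCs against CA1 PNs, edgeR adjusted p = 0.281). Calretinin also marks hilar mossy cells, some interneurons and Cajal-Retzius cells. In DGC libraries the mossy cell genes Drd2 and Csf2rb2 had no count in 24 and 27 of 28 libraries, whereas Sv2c (101.4 to 203.5 CPM) and Ajap1 (11.9 to 41.1 CPM) were present in all 28. Of the Cajal-Retzius genes, Lhx1 had no count in any library, Lhx5 none in 27 and Trp73 none in 7, while Reln lay at 2.15 to 36.9 CPM and Ndnf at 1.13 to 22.6 CPM. Several of these genes were as high or higher in pyramidal libraries. Median Ajap1 was 28.0 CPM in DGCs, 73.1 CPM in CA3 PNs and 61.3 CPM in CA1 PNs. Trp73 had medians of 1.63 CPM in DGCs and 16.7 CPM in CA3 PNs, and Reln 19.9 and 21.0 CPM. Sv2c (140.6 and 0.851 CPM) and Ndnf (9.41 and 1.28 CPM) were higher in DGCs. Their presence therefore does not single out mossy or Cajal-Retzius cells. The part of mossy cells, interneurons and Cajal-Retzius cells in the Calb2 counts was not tested.

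Within DGCs on the normal diet, the Sox4 ranges of the genotypes did not overlap, and those of the other well measured genes did. The share of all genes with ranges that did not overlap is not given here. In this comparison 8.50% of all genes tested passed an unadjusted p of 0.05 (edgeR). Sox4 lay at 23.7 to 40.7 CPM in the 6 2N libraries (median 30.3) and at 11.3 to 19.5 CPM in the 6 Ts libraries (median 15.1). All 6 Ts libraries were below the lowest 2N library. The LFC between Ts and 2N was -1.03 ± 0.20, or 0.491-fold, and lay between -1.11 and -0.93 when each library was left out in turn. Since Sox4 was listed with this difference known, it is given without a test. The overlapping lncRNA A330102I10Rik had medians of 11.6 CPM in 2N and 13.6 CPM in Ts mice.

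**Figure D2:**
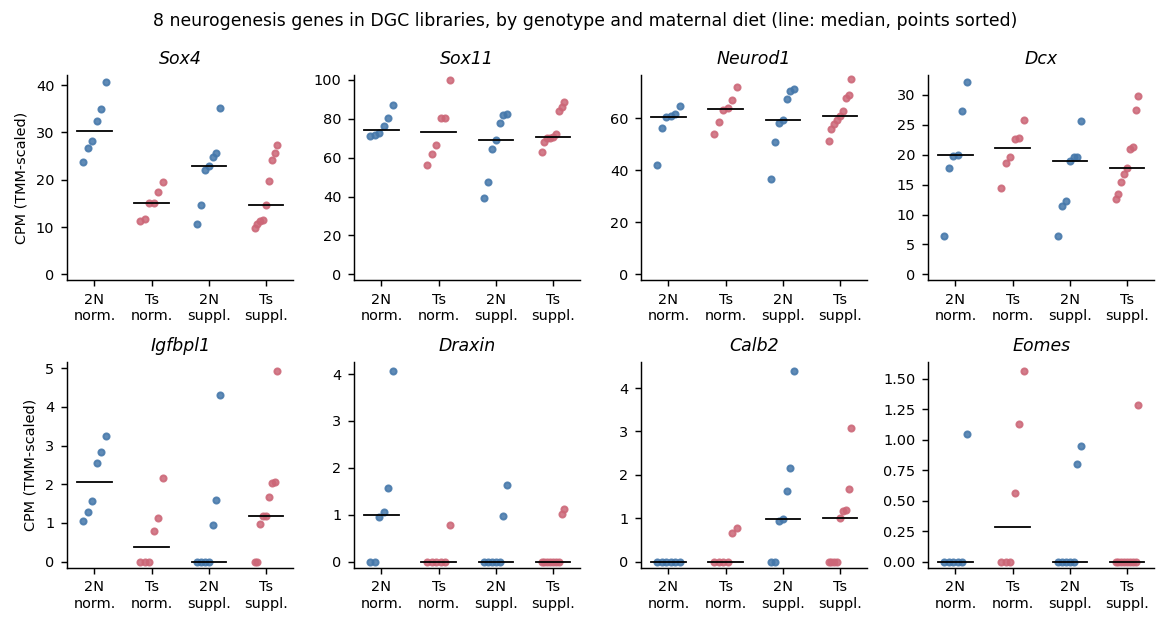
The 8 genes in DGC libraries (vertical axes, CPM after TMM scaling) of 2N (blue) and Ts (red) mice on the normal and supplemented diets, with points sorted by value in a group and a line at the group median. Sox4, listed with this difference known, is the one well measured gene whose 2N and Ts libraries did not overlap on the normal diet. On the supplemented diet the Sox4 groups overlapped.

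In other mice, on the supplemented diet, the 7 2N libraries had 10.8 to 35.1 CPM of Sox4 (median 22.9) and the 9 Ts libraries 9.74 to 27.4 CPM (median 14.7). The groups overlapped, with 2 of 9 Ts libraries below the lowest 2N library and 6 of 9 below the 2N median. The LFC was -0.41 ± 0.22 (95% interval -0.85 to 0.03), and it ranged from -0.52 to -0.24 when 1 library was left out. This difference follows from the genotype difference on the normal diet and the diet differences, all of which were known when the gene was listed, so it too is given without a test, here and for the other 7 genes.

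The Sox4 difference between genotypes was 0.62 smaller in size on the supplemented diet than on the normal diet (95% interval 0.03 to 1.21). Set against the normal diet within a genotype, Sox4 on the supplemented diet had an LFC of -0.41 ± 0.21 in 2N mice and 0.21 ± 0.22 in Ts mice. These 3 values share libraries with the difference on the normal diet for which Sox4 was listed, and they are given as a description.

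Sox11, of the same SoxC group, had genotype ranges that overlapped on both diets. On the normal diet it lay at 71.2 to 86.8 CPM in 2N (median 74.4) and 56.4 to 99.7 CPM in Ts mice (median 73.3), an LFC of -0.03 ± 0.12. It lay at 39.2 to 82.4 CPM in 2N (median 68.9) and 62.7 to 88.5 CPM in Ts mice (median 70.8) on the supplemented diet. That LFC was 0.11 ± 0.12 (95% interval -0.13 to 0.35).

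Neurod1 had medians of 60.6 CPM in 2N and 63.7 CPM in Ts mice on the normal diet, an LFC of 0.14 ± 0.12. The medians on the supplemented diet were 59.3 and 60.7 CPM, an LFC of 0.04 ± 0.12 (95% interval -0.20 to 0.28). Neurod1 groups overlapped on both diets.

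Dcx ranged from 6.48 to 32.1 CPM in 2N (median 19.9) and from 14.5 to 25.8 CPM in Ts mice (median 21.0) on the normal diet, an LFC of -0.06 ± 0.22. Under supplementation it ranged from 6.45 to 25.6 CPM (median 18.9) and from 12.7 to 29.8 CPM (median 17.8), an LFC of 0.18 ± 0.22 (95% interval -0.26 to 0.61). The diet LFC of Dcx was -0.28 ± 0.24 in 2N and -0.04 ± 0.21 in Ts mice. Neither Sox11 nor Neurod1 had a diet LFC above 0.15 in size in either genotype.

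The rare genes gave opposite or empty patterns on few counts. Igfbpl1 was found in 6 of 6 2N libraries (15 counts, 1.05 to 3.25 CPM) and in 3 of 6 Ts libraries (5 counts, 0 to 2.16 CPM) on the normal diet. With supplementation it was found in 3 of 7 2N libraries (5 counts, 0 to 4.30 CPM) and 7 of 9 Ts libraries (15 counts, 0 to 4.92 CPM), where mouse 15-198 gave 5 of the 15 counts. The pooled CPM ratio of 2N to Ts was 3.36 on the normal diet (95% counting interval 1.16 to 11.8) and 0.510 on the supplemented diet (0.145 to 1.48). The genotype LFC differed between diets by 2.40 (95% interval 0.28 to 4.52), a value that rests on 40 counts. Igfbpl1 was listed with these differences known, so the values and intervals are a description and not a test. The counting intervals also leave out the spread between mice.

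Draxin had 9 counts in 4 of 6 2N libraries and 1 count among 6 Ts libraries on the normal diet, and 5 of the 9 came from mouse 17-172 (4.06 CPM). The supplemented groups had 2 counts in 2N and 3 in Ts mice. Calb2 was at 0 in all 6 2N libraries on the normal diet and had 2 counts in Ts mice, whereas on the supplemented diet each genotype had 9 counts. For 2N mice that is at least 3.45-fold above what 3 counts over the normal-diet group would give (0.438 CPM), and 5 of the 9 counts came from mouse 16-90. Eomes had 1 count in 2N and 4 in Ts mice on the normal diet, and 2 and 1 on the supplemented diet.

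Few listed genes of the earlier steps of neurogenesis differed between genotypes. Of 14 genes of stem cells and early progenitors, 8 could be tested on the normal diet and 11 on the supplemented diet, and none passed an unadjusted p of 0.05 between genotypes in DGCs (edgeR) in either. None passed with DESeq2, and 1 of 11 did on the supplemented diet with limma-voom. Over all alternatives 0 to 2 passed on the normal diet (2 of 14 with no filter on low values) and 0 to 1 on the supplemented diet. The background in these comparisons was 8.50% and 7.60% of genes. Of 10 cell cycle genes, none of 5 tested passed on the normal diet and 2 of 7 on the supplemented diet, where the replication helicase genes Mcm6 fell (LFC -0.31 ± 0.13, edgeR adjusted p = 0.450) and Mcm2 rose (1.04 ± 0.50, adjusted p = 0.621). With DESeq2 1 of these 7 passed.

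Among 24 further genes of neuroblasts and young granule cells, changes ran in both directions. On the normal diet 7 of 18 tested passed, against 8.50% of all genes. Of these 2 rose and 5 fell in Ts mice (median LFC of the tested genes 0.08, against 0.00 over all genes). On the supplemented diet 5 of 19 tested passed, against 7.60% of all genes, and 2 rose and 3 fell (median LFC of the tested genes 0.01, against 0.01 over all genes). The 5 genes that passed on the supplemented diet had all passed with the same sign on the normal diet, in different mice. They were Neurod2, Islr2, Dpysl5, Stmn2 and Elavl2, of which Dpysl5 and Elavl2 are named because they passed on both diets, a choice made after their values were seen. The list itself was chosen with earlier results of these data known, so the recurrence on both diets is a description.

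**Figure D3:**
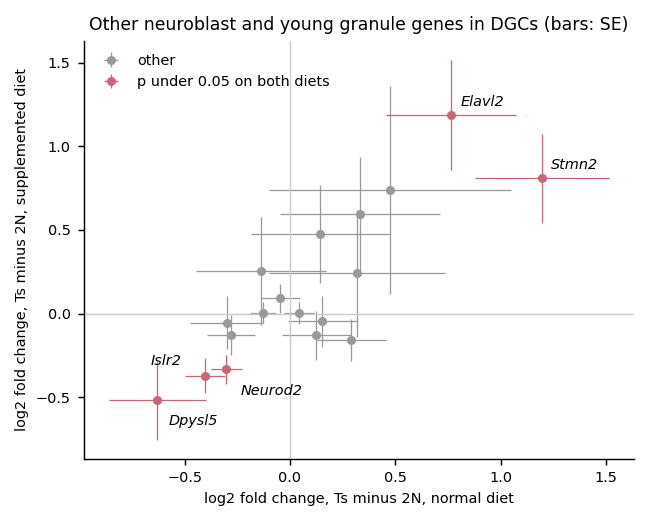
Genotype LFC (Ts minus 2N, edgeR) in DGCs on the normal diet (horizontal axis) and supplemented diet (vertical axis) of the listed neuroblast and young granule cell genes that were tested on both, with bars of 1 SE. Of these, 5 (red) passed an unadjusted p of 0.05 on both diets, with Stmn2 and Elavl2 higher and Neurod2, Islr2 and Dpysl5 lower in Ts mice.

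Neurod2, a relative of Neurod1 in maturing excitatory neurons, lay at 260.3 to 440.7 CPM in 2N (median 320.8) and 222.6 to 324.3 CPM in Ts mice (median 283.5) on the normal diet. Under supplementation it lay at 306.7 to 361.0 CPM (median 324.5) and 235.8 to 307.5 CPM (median 261.8), where the groups overlapped only at their edges. It fell by LFC -0.30 ± 0.07 on the normal diet (edgeR adjusted p = 0.0365) and -0.33 ± 0.09 on the supplemented diet (adjusted p = 0.0719).

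Islr2, a membrane protein that acts in axon growth, lay at 161.3 to 306.3 CPM in 2N (median 210.3) and 134.2 to 202.4 CPM in Ts mice (median 170.6) on the normal diet. With supplementation the ranges were 172.2 to 232.8 CPM (median 216.6) and 128.4 to 190.6 CPM (median 155.3). Its LFC was -0.40 ± 0.09 (edgeR adjusted p = 0.0211) and -0.37 ± 0.10 (adjusted p = 0.125).

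Dpysl5, a collapsin response mediator protein of growing neurites, had medians of 24.5 CPM in 2N and 22.5 CPM in Ts mice on the normal diet (LFC -0.63 ± 0.23, edgeR adjusted p = 0.381). The medians on the supplemented diet were 31.0 and 19.5 CPM (LFC -0.52 ± 0.24, adjusted p = 0.599), and this call was lost in 11 of 22 alternatives.

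Stmn2, a microtubule-binding protein of growth cones, rose from a median of 8.19 CPM in 2N to 14.6 CPM in Ts mice on the normal diet (LFC 1.20 ± 0.32, edgeR adjusted p = 0.0568). The medians on the supplemented diet were 6.44 and 13.0 CPM (LFC 0.81 ± 0.27, adjusted p = 0.211). Elavl2, a neuronal RNA-binding protein, had medians of 4.91 and 11.7 CPM on the normal diet (LFC 0.77 ± 0.31, adjusted p = 0.459) and 5.71 and 11.1 CPM on the supplemented diet (LFC 1.19 ± 0.33, adjusted p = 0.0842).

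Later and neighbouring steps also moved in both directions. Of 10 mature granule cell genes, 2 rose and 2 fell on each diet, against backgrounds of 8.50% and 7.60% of genes on the normal and supplemented diets, and Lct alone passed on both, with an LFC of -0.24 ± 0.09 on the normal and -0.39 ± 0.14 on the supplemented diet (edgeR adjusted p = 0.429 and 0.395). Of 14 tested netrin, DCC and Slit-Robo guidance genes, the family in which Draxin acts, 2 rose and 1 fell on the normal diet and 2 rose and 4 fell on the supplemented diet. Slit2 rose (LFC 0.74 ± 0.32 and 0.44 ± 0.21) and its receptor gene Robo1 fell (LFC -0.37 ± 0.16 and -0.43 ± 0.14) on both, with edgeR adjusted p between 0.245 and 0.619. The DCC gene itself, the receptor for Draxin, fell on the supplemented diet (LFC -0.41 ± 0.16, adjusted p = 0.433). Of the IGF system genes other than Igfbpl1, 1 of 7 and 1 of 8 tested passed, shares near the same backgrounds, in each case Igf1r, the IGF1 receptor, with an LFC of -0.29 ± 0.10 and -0.21 ± 0.10 (adjusted p = 0.325 and 0.574).

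Some markers of other cells in the capture passed between genotypes in DGCs. The backgrounds were 8.50% of all genes on the normal diet and 7.60% on the supplemented diet. On the supplemented diet 3 of 6 tested interneuron markers rose in Ts mice (Gad2, LFC 1.02 ± 0.20, edgeR adjusted p = 0.0101, with Slc32a1 and Gad1), and the summed level of the 8 markers was 233.8 to 334.8 CPM in Ts against 175.2 to 260.2 CPM in 2N mice. On the normal diet 0 of 6 passed with edgeR, DESeq2 or limma-voom, and the sums were 203.1 to 289.0 and 207.5 to 265.5 CPM. Sst and Vip had no count in 19 and 18 of 28 libraries. Of the 7 astrocyte markers, Aldh1l1 and S100b rose on the normal diet and Slc1a3 on the supplemented diet, and their sums were 767.9 to 1033 CPM in Ts and 708.4 to 1017 CPM in 2N mice on the normal diet (731.6 to 1078 and 661.8 to 922.7 CPM on the supplemented diet). Of 6 CA1 PN markers, 3 could be tested on the normal diet (median LFC 0.30) and 4 on the supplemented diet (median LFC -0.35). Fibcd1 fell on both diets (LFC -0.83 ± 0.23 and -0.73 ± 0.20) and Pou3f1 on the supplemented diet (LFC -2.95 ± 0.62, edgeR adjusted p = 0.00582), while Wfs1 (0.30 ± 0.24 and 0.02 ± 0.23) and Mpped1 (0.39 ± 0.54 and 0.58 ± 0.49) did not pass on either diet. In some other lists 1 gene rose in Ts mice on the supplemented diet. These were Reln of 3 tested Cajal-Retzius genes (LFC 0.81 ± 0.22, edgeR adjusted p = 0.0832) and Csf1r of 5 microglial genes (1.18 ± 0.34, adjusted p = 0.114). The others were Mag of 4 oligodendrocyte genes (1.69 ± 0.59, adjusted p = 0.273) and Cpne4 of 4 CA3 PN markers (0.48 ± 0.15, adjusted p = 0.229). None of 5 oligodendrocyte precursor or 4 vascular genes passed on that diet. No tested gene of these lists passed on the normal diet. Of 2 tested mossy cell genes, Sv2c fell on the normal diet (LFC -0.23 ± 0.10, edgeR adjusted p = 0.528), and neither passed on the supplemented diet. The part of these cells in the Sox4 and neuroblast gene values was not tested.

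Between diets, DGCs changed little in the listed neurogenic genes. Of the 20 tested neuroblast and young granule cell genes, 1 passed in Ts mice (Tubb5, LFC 0.18 ± 0.09, edgeR adjusted p = 0.999) and 3 in 2N mice, against 3.81% and 5.82% of all genes. Those in 2N mice were the tubulin genes Tubb2b (LFC 0.54 ± 0.15, adjusted p = 0.578) and Tubb3 (0.34 ± 0.16, adjusted p = 0.852) and the polysialyltransferase gene St8sia4 (-0.37 ± 0.17, adjusted p = 0.840). None of the 11 tested stem cell and early progenitor genes passed in either genotype.

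In CA3 PNs none of the 4 genes that could be tested (Dcx, Sox4, Sox11 and Neurod1) passed an unadjusted p of 0.05 between genotypes on either diet, against 9.20% of genes on the normal diet and 4.99% on the supplemented diet. None passed with DESeq2 or limma-voom either. Sox4 lay at 3.27 to 7.65 CPM in 2N and 2.93 to 8.59 CPM in Ts mice on the normal diet (LFC -0.04 ± 0.36, 95% interval -0.76 to 0.69, edgeR adjusted p = 0.993). On the supplemented diet its LFC was 0.19 ± 0.37 (-0.55 to 0.93). Dcx had medians of 13.7 CPM in 2N and 20.1 CPM in Ts mice on the normal diet (LFC 0.33 ± 0.24, -0.15 to 0.81) and 15.3 and 17.3 CPM on the supplemented diet (LFC 0.17 ± 0.19, -0.22 to 0.56). The Dcx difference on the normal diet reached an unadjusted p under 0.05 without Ts mouse 17-157 or without 2N mouse 17-172, with LFCs up to 0.52, and was 0.10 with mouse 15-145 placed by its Ts label.

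Neurod1 and Sox11 on the supplemented diet had the largest genotype LFCs of CA3 PNs relative to their error, 0.31 ± 0.17 and 0.49 ± 0.28 (edgeR adjusted p = 0.999 for both). Neurod1 passed an unadjusted p of 0.05 with both diets in 1 fit, and without 2N mouse 15-269 or 15-334 or Ts mouse 14-90, and Sox11 passed without 2N mouse 15-334 or Ts mouse 15-36. Their LFCs without 1 library were 0.20 to 0.41 and 0.32 to 0.69. None of the 4 genes passed between diets, in Ts (4.19% of genes) or 2N mice (4.90%).

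**Figure D4:**
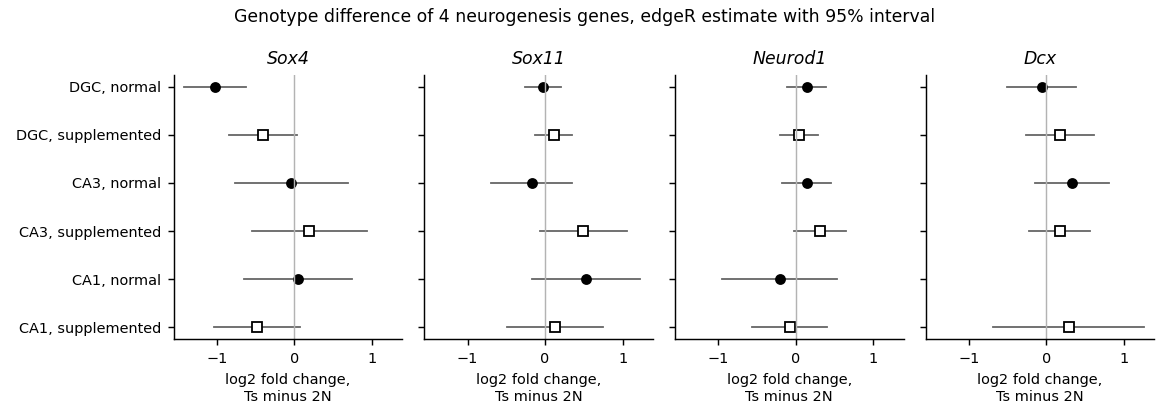
Genotype LFC (Ts minus 2N, horizontal axes) of Sox4, Sox11, Neurod1 and Dcx in the 3 populations on the normal (filled circles) and supplemented (open squares) diets, with 95% intervals of the edgeR fit. Sox4 in DGCs on the normal diet, the value for which the gene was listed, lies at -1.03, and Dcx was too low to be fitted in CA1 PNs on the normal diet.

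In CA1 PNs Sox4 did not pass between genotypes. On the normal diet Sox4 lay at 6.87 to 29.1 CPM in 2N (median 17.9) and at 9.44 to 29.9 CPM in the 5 Ts libraries (median 14.1), an LFC of 0.04 ± 0.33 (95% interval -0.65 to 0.74, edgeR adjusted p = 0.9996). On the supplemented diet it lay at 7.36 to 31.8 CPM in 2N (median 20.5) and 5.83 to 25.9 CPM in Ts mice (median 16.8), an LFC of -0.48 ± 0.27 (-1.03 to 0.08, adjusted p = 0.99998). The latter passed an unadjusted p of 0.05 without 2N mouse 15-336 or without Ts mouse 15-245. It was -0.29 without the CA1 PN libraries that held CA3 PN markers.

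None of the 3 genes tested on the normal diet (Sox4, Sox11 and Neurod1) or of the 4 tested on the supplemented diet passed in CA1 PNs, against 3.77% and 3.60% of genes, and none did with DESeq2 or limma-voom. Sox11 on the normal diet had an LFC of 0.53 ± 0.33 and passed an unadjusted p of 0.05 without Ts mouse 17-173 (LFC up to 0.71 without 1 library), and it was 0.22 without the libraries that held CA3 PN markers. Without 2N mouse 17-154 the LFC on the normal diet was 0.04 for Sox4 and 0.63 for Sox11, and neither passed. Between diets none of the 5 genes tested passed in Ts (3.05% of genes) or 2N mice (3.27%).

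**Figure D5:**
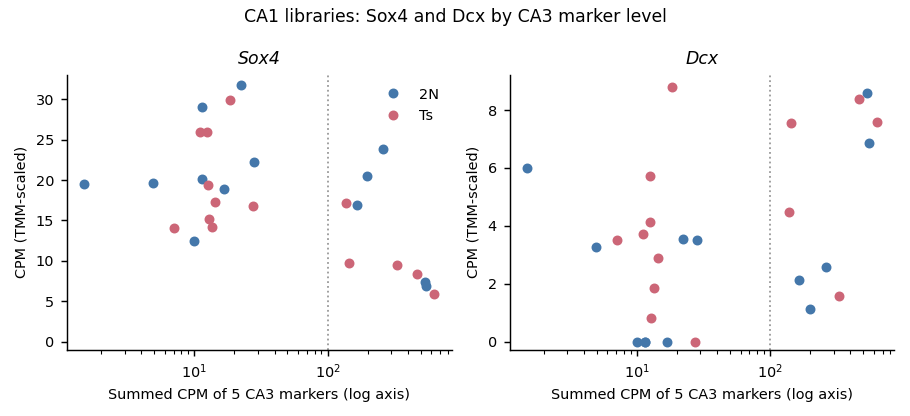
Sox4 (left) and Dcx (right) in 27 CA1 PN libraries (vertical axes, CPM after TMM scaling) against the summed CPM of 5 CA3 PN markers (horizontal, log axis), for 2N (blue) and Ts (red) mice, with a dotted line at 100 CPM. The 10 libraries to its right had a median Sox4 of 9.58 CPM, against 19.5 CPM in the other 17, and a median Dcx of 5.67 CPM, against 3.28 CPM.

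Both genes moved with the CA3 PN markers among CA1 PN libraries, in the direction in which the populations differ. The 10 libraries with CA3 PN markers had a median Sox4 of 9.58 CPM, against 19.5 CPM in the other 17, and a median Dcx of 5.67 CPM against 3.28 CPM. Without these 10, Dcx had 0 counts in 4 2N libraries on the normal diet and 14 counts in 4 2N libraries on the supplemented diet (3.28 to 5.99 CPM). That is at least 4.81-fold above what 3 counts over the normal-diet libraries would give (0.810 CPM), and Dcx then passed an unadjusted p of 0.05 (edgeR adjusted p = 0.248). With all libraries its LFC was 1.34 ± 0.73 (adjusted p = 0.9998).

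The neuroblast and young granule cell list was near the background in pyramidal neurons. Between genotypes 2 of 19 and 1 of 20 tested genes passed in CA3 PNs on the normal and supplemented diets, against 9.20% and 4.99% of all genes. In CA1 PNs 1 of 20 and 0 of 21 passed, against 3.77% and 3.60% of all genes. In CA3 PNs on the normal diet, Neurod2 fell (LFC -0.23 ± 0.09, edgeR adjusted p = 0.409) as in DGCs, and Tubb2b rose (LFC 0.36 ± 0.16, adjusted p = 0.443). In the same libraries 6 of 8 interneuron markers fell, a share well above the 9.20% of all genes that passed. Their part in these values was not tested. In CA1 PNs on the normal diet Stmn1, the relative of Stmn2, fell (LFC -0.59 ± 0.19, adjusted p = 0.9996).

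Among DGC libraries, the 5 genes with a mean of at least 1 CPM (Calb2, Draxin and Eomes were below it) did not all vary together. With group means removed they gave 10 pairs over 28 libraries, which share depth and scaling. Pearson's r was 0.45 for Dcx and Sox4 and 0.44 for Sox11 and Neurod1, and between -0.22 and 0.26 for the other 8 pairs. For Dcx and Sox11 it was -0.04. Of 9000 genes compared with the mean of these 5, those most like it were Trank1 (r = 0.72), Nasp (0.70), Trappc4 (0.70), Tdo2 (0.68), Ccdc117 (0.67), Fastk (0.67), Emc10 (0.66), Pcdhac2 (0.66), Pan2 (0.66) and Rerg (0.66). Tdo2 is also on the mature granule cell list. These are the highest of 9000 correlations over 28 libraries, and whether they exceed what chance gives was not tested.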

How the data were processed

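The authors trimmed reads where needed (Trimmomatic 0.39, with FastQC 0.11.9 and Picard 2.26.2 for quality), aligned them to GRCm39 with STAR and quantified genes with RSEM, from libraries of a stranded total RNA kit. The deposited values used here are RSEM expected counts per gene, not normalized (0.784% were not whole, and all were rounded to whole numbers), and the deposited TPM, used for levels between genes. The labels also name mm10. Of 57010 identifiers 56310 had a symbol. The genes and lists were chosen with earlier results of these data known. CPM used TMM scaling.

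Differences were tested with edgeR's quasi-likelihood test (edgeR 4.0.16, R 4.3.3) over genes above 0.1 CPM in at least 10 libraries, within a population by genotype or diet and across all libraries by population, with Benjamini-Hochberg adjustment over all genes tested. As in the study, an unadjusted p under 0.05 counted as passing for genotype and diet, and an adjusted p under 0.05 for populations. Study covariates were not used here. Genes of the lists were named where their adjusted p was under 0.05 or they were among the 4 with the smallest p of a list in a comparison. Alternatives used DESeq2 1.42.0, limma-voom (limma 3.58.1), library totals, other filters, both diets in 1 fit, the label of 15-145, and each library left out. The scripts were tested on simulated data. 1 interneuron marker was left out of its list and is not reported here.

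Libraries of 1 mouse were paired across populations by the mouse number in the labels. Over 9105 genes the deviations from group means of 78 such pairs had a median correlation of 0.088 (-0.009 to 0.210, 33 over 0.1), against -0.003 between different mice.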

Additional observations from a re-analysis of the deposited data

Results flagged for a closer look

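In 4 of 53 sets of libraries of 1 group and gene, 1 library stood apart from the rest by Dixon's test, which chance gives in about 1 of 20. Mouse 17-21 (2N, normal diet) held 2 of them, with Dcx at 6.87 CPM in CA1 PNs against 2.11 CPM in the next library, and Neurod1 at 42.0 CPM in DGCs against 56.3 CPM in the next. Igfbpl1 was 4.92 CPM in the DGC library of Ts mouse 15-198 on the supplemented diet, against 2.05 CPM in the next. Neurod1 was 21.3 CPM in the CA3 PN library of Ts mouse 14-90 on the supplemented diet, against 34.1 CPM in the next. The CA1 PN library of mouse 17-21 was among the 10 with CA3 PN markers.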

How the results depend on the processing

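The 8 genes were chosen by dentate values, so passes between genotypes are not counted for them in DGCs. Leaving out 1 library at a time, the number that passed ranged from 0 to 1 in CA3 PNs on the normal diet (Dcx). The range was also 0 to 1 in CA1 PNs on the normal (Sox11) and supplemented diets (Sox4). It was 0 to 2 in CA3 PNs on the supplemented diet (Neurod1 and Sox11), where 1 passed with both diets in 1 fit. The LFC changed sign without 1 library for Dcx (-0.21 to 0.11) and Sox11 (-0.135 to 0.029) in DGCs on the normal diet, where the median of the genes fitted ran from -0.12 to 0.028, for Neurod1 in DGCs on the supplemented diet (-0.010 to 0.094), Sox4 in CA3 PNs (-0.24 to 0.11) and CA1 PNs (-0.18 to 0.25) on the normal diet, and Neurod1 in CA1 PNs on the supplemented diet (-0.17 to 0.10). Under limma-voom Sox4 between genotypes in CA1 PNs on the normal diet was -0.015. With filterByExpr, which tested 4 of the 8 genes, 3 passed for DGCs against CA3 PNs and 3 against CA1 PNs. Without the 10 CA1 PN libraries that held CA3 PN markers (chosen after seeing the data), 1 gene passed between diets in 2N CA1 PNs (Dcx), and signs changed in CA1 PNs between genotypes for Sox4 on the normal diet (-0.0046), Dcx (-0.39) and Sox11 (-0.13) on the supplemented diet, between diets for Dcx (-0.56) and Neurod1 (-0.12) in Ts and Neurod1 in 2N mice (0.0023), and for Sox11 between CA1 and CA3 PNs (-0.036). Neurod1 between diets in Ts CA1 PNs was -0.0099 with library totals. With mouse 15-145 as Ts in CA3 PNs, Dcx between diets was 0.011 in Ts and -0.066 in 2N mice. With the mouse as replicate block, no call between populations changed among Sox4, Sox11, Neurod1 and Dcx. Without the block 58.9%, 51.4% and 41.2% of all genes passed for DGCs against CA3 PNs, DGCs against CA1 PNs and CA1 against CA3 PNs. Igfbpl1 and Draxin are left out here, since they reached the filter mainly through their DGC libraries. The causes were not tested. At a median of 929300 counts a DGC library, 1 count is about 1 CPM, so Calb2, Draxin, Eomes and Igfbpl1 give presence or absence more than levels.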
